A study of Homo sapiens with 3 samples.

Results

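Interferon-stimulated genes were followed in a human colorectal cancer line on 3 Affymetrix arrays, 1 array per group. The list of 43 genes was given by symbol and its rule does not use measured values, but it was chosen with earlier results of these data known. A gene was included when the platform's annotation gave at least 1 probe set with its symbol alone, which left 42 genes measured by 71 probe sets, out of 19775 genes on the array. STAT2 was not analysed here, and the gene listed as DDX58 is called by its current symbol, RIGI. Each gene was read from its brightest probe set, by the mean of the log2 signals of the 3 arrays.

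The control cells were infected with a virus carrying an empty vector. The LATS2 cells received a virus with the whole LATS2 sequence, which encodes a Hippo pathway kinase that phosphorylates YAP and TAZ. The LATS2N cells received a virus with LATS2 residues 1 to 625, a fragment that ends before the kinase domain. The sample labels give the line as SW620, while the series' design text names SW480 and describes stable expression. The kind of virus, the promoter that drove the inserts and whether a line was 1 clone or a pool are not given in the sources used here. All 3 groups were infected, so infection itself was not compared with uninfected cells: the arrays compare inserts.

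Interferons are secreted when a cell senses foreign or misplaced nucleic acid through receptors such as RIG-I, MDA5 or cGAS. They bind surface receptors, and JAK kinases there activate the transcription factor ISGF3, which includes STAT2 and IRF9. ISGF3 binds the interferon-stimulated response element (ISRE) in promoters of genes whose products block viral entry, translation, replication and release. Some of these genes are also transcribed at rest, while others are known for very low levels until interferon arrives.

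The 3 arrays had the same trimmed mean signal, 500.1, after MAS5 summarisation by the authors, and median signals from 49.4 to 51.1. The median over every probe set and array, 50.5, served as a floor: a lower signal was raised to it before the log2 ratio was computed, and a ratio with 1 array at the floor is a bound, written "at least". With 1 array per group there is no replicate spread and no test, so "higher" and "lower" describe these arrays only. The only error available was the disagreement between probe sets of 1 gene. As a robust SD of the log2 ratio of LATS2 to control, it fell with signal, from 0.41 for dimmer signals under 100 through 0.29 up to 200, 0.24 up to 500 and 0.17 up to 2000 to 0.11 beyond. It does not cover differences between cultures. In bulk RNA, fewer cells with a transcript and less RNA per cell cannot be told apart.

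Of 9 colon epithelium markers, 7 were above the floor on all arrays, with EPCAM, KRT8 and KRT18 at 16608 or more, while CEACAM5 and LGALS4 were above it on 1 array each. CDH1, which encodes E-cadherin, read 4421 (control), 2792 (LATS2) and 3567 (LATS2N). VIL1, which encodes villin, read 5013, 3948 and 4666, so both were lowest on the LATS2 array. EPCAM (16608, 18744 and 18756), KRT18 (43054, 47247 and 45854), KRT8 and KRT20 were instead lowest on the control array. CDX2 read 177, 194 and 141, highest on the LATS2 array. Over the 8 epithelial markers reaching the floor in LATS2 against control, the median log2 ratio was 0.135. Of 7 measured leukocyte markers, 3 were below the floor on all arrays, PTPRC among them, 3 were above it on some arrays and LYZ on all. The summed leukocyte signal lay between 321 and 394. Of 6 fibroblast and endothelial markers, 4 were below the floor on all arrays. COL1A1 read 325, 596 and 607, higher on both construct arrays, and PECAM1 142, 85.0 and 91.6, lower on both. Both genes have 5 probe sets, and these directions rest on the brightest alone. The part of these markers in the results was not tested. The summed signal of 3 plasmacytoid dendritic cell markers, a cell type that makes much interferon, lay between 23.8 and 40.9, and all 3 markers were below the floor on every array. The LATS2 gene's brightest probe set read 385 (control), 377 (LATS2) and 409 (LATS2N), the next 206, 219 and 219, and the other two were below the floor on every array. The transcript region read by each is not known here, so they do not check the labels.

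Most of the genes kept to one side of the floor. Of the 42, 23 were above the floor on all 3 arrays, 6 were above it on some arrays, and 13 were below it on every array. Among all 19775 genes, 58.3% were above the floor on all arrays and 31.2% below it on all, against 54.8% and 31.0% of the interferon-stimulated genes. A signal of at least 500 on some array was reached by 8 of the 42 (19.0%), against 37.9% of all genes. The 8 were IFIH1, IRF1, EIF2AK2, ISG15, HERC5, ISG20, DTX3L and IFI6. The 13 genes below the floor had 23 probe sets in all, and none of these reached the floor on any array, their signals running from 1.54 to 48.5. They were DHX58, IFI16, IFITM1, GBP1, GBP2, RSAD2, CMPK2, TRIM22, XAF1, IFI27, IFI44, IFI44L and CXCL10. A signal under the floor does not show that a transcript was absent.

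**Figure D1:**
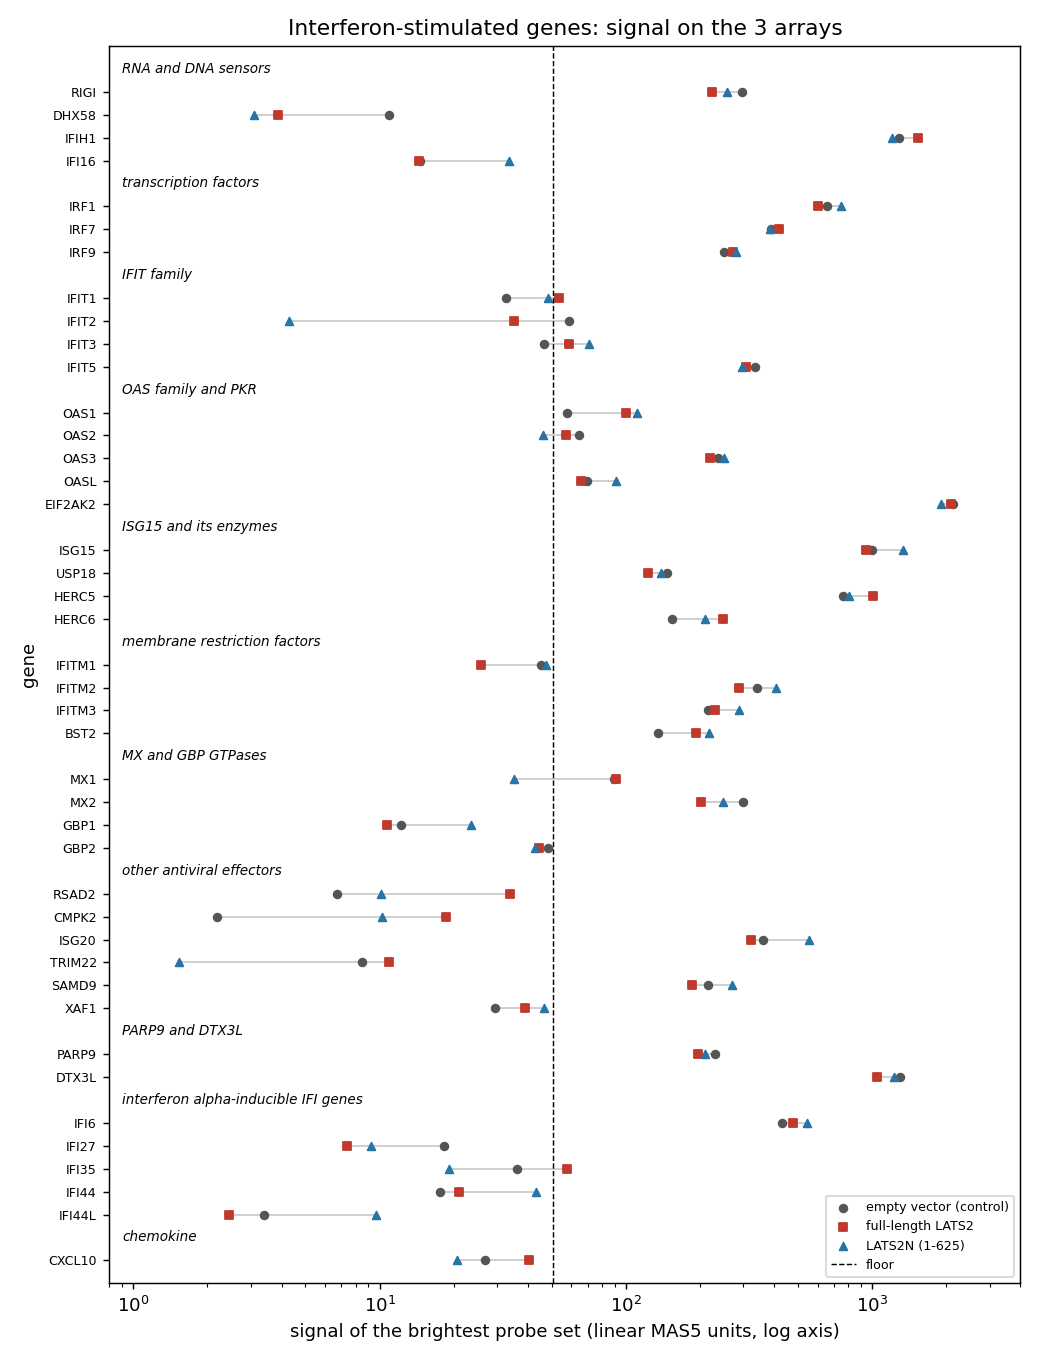
Signal of the brightest probe set of each of the 42 genes on a log axis, 1 point per array, grouped by role; the dashed line is the floor of 50.5. Points compare the arrays within a row, not one gene with another, and 13 rows lie wholly left of the line while 23 lie wholly right of it.

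The interferon genes themselves gave no signal above the floor. All 9 measured ligand genes, IFNA1, IFNA2, IFNA8, IFNB1, IFNE, IFNK, IFNG, IFNL1 and IFNL2, were below it on every array, between 0.92 and 45.0. Where signals of 3 arrays are given, their order is control, LATS2, LATS2N. IFNB1, the type I interferon most cells make first, read 2.14 (control), 3.71 (LATS2) and 3.30 (LATS2N). IFNL1, a type III interferon of epithelia, read 14.1, 41.9 and 45.0. IFNL3 had no probe set of its own and was not analysed here.

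The receptors were all above the floor. IFNAR1, a chain of the type I receptor, read 726 (control), 557 (LATS2) and 603 (LATS2N), and IFNAR2, the other chain, read 541, 502 and 639. The type II receptor chains IFNGR1 (1296, 1187 and 1449.9) and IFNGR2 (2323, 2201 and 2838) were also measured well above the floor. IFNLR1, the specific chain of the type III receptor, read 135, 178 and 171, and its partner IL10RB read 663, 865 and 851. Every receptor chain was within 1.5-fold across the arrays. Of the 38 other pathway genes, 35 were measured, and none was called at 2-fold in any of the 3 comparisons, in which 24, 25 and 24 of them reached the floor. Of all genes, 1.80%, 1.51% and 1.59% were called, so a count of 0 among so few genes does not set the pathway apart. The rest, UBA7 and IFNL3 among them, were not analysed here.

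The cytosolic RNA sensors differed in how they could be read. IFIH1, which encodes the long double-stranded RNA sensor MDA5, read 1286 (control), 1541 (LATS2) and 1201 (LATS2N). It was highest on the LATS2 array, 1.28-fold above LATS2N, a log2 ratio of 0.36 against a probe set spread of 0.14. A dimmer IFIH1 probe set, at 58.2, 51.6 and 49.4, did not share that order.

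RIGI, the sensor of RNA with a free triphosphate end, read 295, 223 and 257, lowest on the LATS2 array by a log2 ratio of -0.40 against control. Its other probe sets disagreed with each other. The brighter of them, at 112, 140 and 107, was highest on the LATS2 array. The dimmer, at 64.3, 50.6 and 74.3, was lowest there, like the brightest probe set. No direction can therefore be given for RIGI. DHX58, which encodes the related regulator LGP2, and IFI16, a DNA sensor, were below the floor on all arrays.

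Among the transcription factors, the 3 measured genes stayed within 1.24-fold of each other across arrays. IRF1, a factor induced chiefly by type II interferon, read 653 (control), 603 (LATS2) and 747 (LATS2N). Its second probe set read 312, 300.0 and 329, in the same order but with smaller differences. IRF7, which amplifies type I interferon production, read 387, 419 and 383, and IRF9, the DNA-binding part of ISGF3, read 251, 273 and 280.3. No IRF7 or IRF9 ratio exceeded the spread between probe sets.

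The IFIT genes encode proteins that bind viral RNA ends and block their translation. IFIT1 read 32.5 (control), 53.7 (LATS2) and 48.3 (LATS2N), above the floor on the LATS2 array alone. IFIT2 read 58.7, 35.0 and 4.28, above the floor on the control array alone, but its other probe set stayed between 2.58 and 16.9. IFIT3 read 46.7, 58.9 and 71.0, and its second probe set gave nearly the same values, 35.5, 57.7 and 72.5.

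For IFIT3 both probe sets were therefore lowest on the control and highest on the LATS2N array, at least 1.41-fold above control by the brightest. IFIT5, by contrast, was above the floor throughout, at 335, 307 and 296, with a second probe set at 278, 221 and 225. Both IFIT5 probe sets were highest on the control array, and the lowest log2 ratio to control was -0.33.

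The OAS enzymes make the oligoadenylate messenger that activates the antiviral ribonuclease RNase L. OAS1 read 57.4 (control), 101 (LATS2) and 111 (LATS2N). It was 1.75-fold higher on LATS2 and 1.94-fold higher on LATS2N than on control, and the second value is just short of the 2-fold call. Its second probe set read 44.7, 65.8 and 83.9, again lowest on the control array. The OAS1 signals are close to the floor, where the log2 spread was 0.41 for LATS2 and 0.38 for LATS2N against control, compared with log2 ratios of 0.81 and 0.96.

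The other OAS genes did not follow OAS1. OAS3 read 236, 219 and 251, with log2 ratios to control of -0.11 and 0.09, both inside the spread. OASL, an inactive relative that assists RIG-I, read 69.2, 65.5 and 91.3, and its second probe set 80.1, 29.0 and 83.1, so both were lowest on the LATS2 array. OAS2 read 64.3, 57.0 and 46.1, while another of its probe sets, at 43.7, 46.5 and 56.3, ran the opposite way. EIF2AK2 encodes PKR, the kinase that halts translation on double-stranded RNA, and read 2136, 2093 and 1903. Its second probe set read 1738, 1427 and 1703, lowest on the LATS2 array instead. By the brightest probe set its log2 ratios were -0.03 for LATS2 and -0.17 for LATS2N against control.

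ISG15 encodes a ubiquitin-like protein that is attached to new proteins during infection. It read 998 (control), 948 (LATS2) and 1331 (LATS2N). It stood 1.33-fold higher on the LATS2N array than on control and 1.404-fold lower on the LATS2 array than on LATS2N, log2 ratios of 0.42 and -0.49 where the spread was 0.14 in both cases. The difference between LATS2 and control, -0.07, was inside the spread. ISG15 had 1 probe set, so no second reading exists.

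HERC5, the main ligase for ISG15, had another order over the arrays than ISG15. It read 761, 1008 and 802, highest on the LATS2 array, 1.33-fold above control at a log2 spread of 0.17. HERC6, a relative of HERC5, read 154, 247 and 210.4, 1.602-fold above control on the LATS2 array and 1.36-fold on the LATS2N array. USP18, which removes ISG15 and dampens interferon receptor signalling, read 147, 123 and 139, with all 3 ratios inside the spread.

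The membrane proteins that restrict entry or release gave low to moderate signals. BST2, or tetherin, holds budding virus on the cell surface, and read 135 (control), 192 (LATS2) and 217 (LATS2N). Both construct arrays were above control, by 1.42-fold and 1.61-fold, from 1 probe set. IFITM3, which blocks fusion in endosomes, read 215, 231 and 287, and IFITM2 read 342, 287 and 408. Both were highest on the LATS2N array, where IFITM3 was 1.34-fold above control and IFITM2 1.19-fold.

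IFITM1 was below the floor on all arrays, at 45.3, 25.8 and 47.2. The IFITM genes are close paralogs, and the suffix of their probe set names marks possible shared targets, so signals may be divided among them and are uncertain. Such a suffix was present on the brightest probe set of 13 of the 42 genes, ISG15, OAS1 and RIGI among them.

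The MX genes encode dynamin-like GTPases that trap viral ribonucleoproteins or capsids. MX1, a standard marker of type I and III interferon, read 89.3 (control), 91.0 (LATS2) and 35.1 (LATS2N). It was at least 1.77-fold lower on the LATS2N array than on control, opposite in direction to OAS1, BST2 and ISG15 there. MX2 read 298, 202 and 248, highest on the control array and 1.478-fold lower on the LATS2 array. GBP1 and GBP2, GTPases that attack pathogen vacuoles and respond strongly to type II interferon, were below the floor in all 6 of their probe sets.

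Of the other antiviral effectors, ISG20 and SAMD9 were above the floor. ISG20, an RNA exonuclease, read 359 (control), 322 (LATS2) and 553 (LATS2N), and its second probe set 248, 133 and 398. Both probe sets put LATS2N highest and LATS2 lowest. By the brightest, ISG20 was 1.54-fold higher on LATS2N than on control and 1.72-fold lower on LATS2 than on LATS2N. By the second, the last difference was 3.0-fold, and this was the only one of 42 member probe sets reaching the floor in that comparison that differed by 2-fold or more, against 1.79% of all 24630 probe sets. SAMD9, a poxvirus restriction factor, read 216, 185 and 270, with the same order in a dimmer probe set at 62.2, 58.0 and 82.0.

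RSAD2, which encodes viperin, its neighbour CMPK2, the ubiquitin ligase TRIM22 and the pro-apoptotic factor XAF1 were below the floor in every probe set. RSAD2 and CMPK2 are usually among the most strongly induced interferon targets. Their brightest probe sets read 6.69 and 2.18 (control), 33.8 and 18.6 (LATS2) and 10.1 and 10.2 (LATS2N). Signals this far under the floor have no usable order.

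PARP9 and DTX3L encode a complex of an ADP-ribosyltransferase relative and a ubiquitin ligase that enhances interferon signalling. DTX3L read 1302 (control), 1049 (LATS2) and 1223 (LATS2N), and PARP9 229, 196 and 209. Both genes were lowest on the LATS2 array, by log2 ratios to control of -0.31 and -0.23, the second inside the spread of 0.29. The second PARP9 probe set, at 113, 77.6 and 140.0, was also lowest on the LATS2 array but highest on LATS2N.

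IFI6, a small membrane protein that limits flavivirus replication, read 432, 476 and 544, 1.26-fold higher on LATS2N than on control. IFI35 read 36.04, 57.7 and 19.2, above the floor on the LATS2 array alone. IFI27, IFI44 and IFI44L, commonly used in blood interferon signatures, were below the floor, with IFI44L at 3.39, 2.44 and 9.64. The chemokine gene CXCL10, a target of interferon and NF-kB, read 26.9 (control), 40.5 (LATS2) and 20.6 (LATS2N), below the floor on each.

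**Figure D2:**
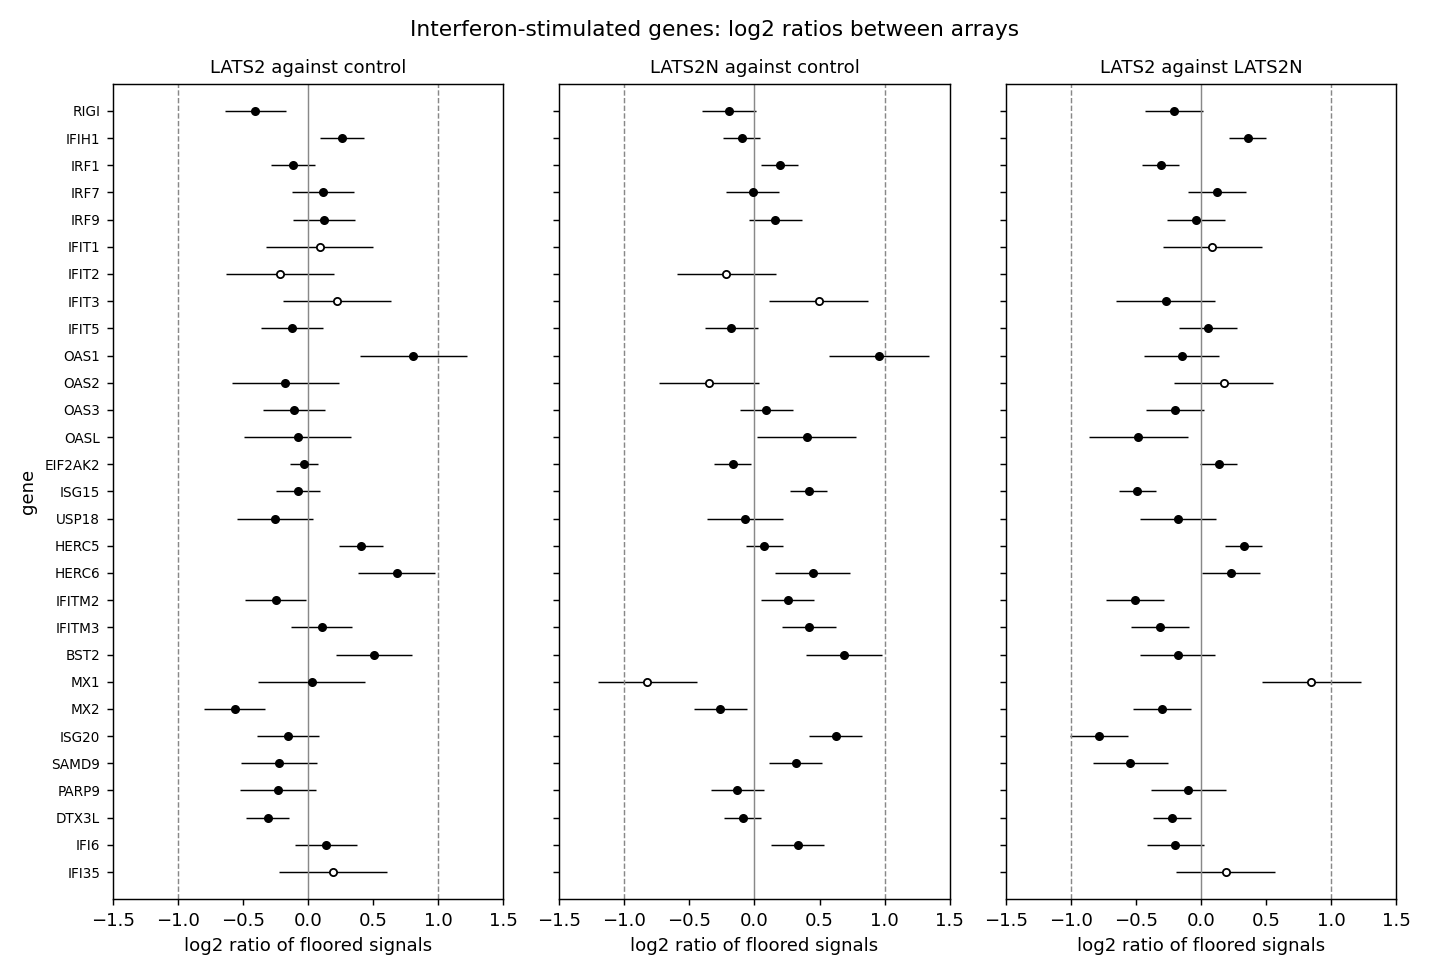
Log2 ratio of floored signals for the 29 genes that reached the floor on some array, in the 3 comparisons. Bars are 1 probe set spread to either side and not replicate error; open points are bounds with 1 array at the floor, dashed lines mark 2-fold, and no point lies beyond a dashed line, OAS1 in LATS2N against control coming closest at 0.96.

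Promoter sequences were examined because the list spans genes with clear signal and genes below the floor. RefSeq promoter windows (GRCh38.p14, 250 bases before to 50 after a start site) were present for 33 of the 43 genes. The core of the ISRE was searched on both strands as GAAA, any 2 bases and GAAA. It was found in a window of 23 of the 33 genes (69.7%), against 4.38% of all 27305 genes with a window. It was held by 13 of 18 genes that were above the floor throughout and by 7 of 10 that were below it throughout. The STAT dimer motif TTCNNNGAA, also searched on both strands, was present in 8 of the 33 genes (24.2%), against 9.38% of all genes. It is short and can overlap the ISRE core. A match describes these letters and is not evidence of binding.

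The windows below run 5′ to 3′ in the direction of the gene, with each match to the ISRE core in capitals. The first 4 belong to genes above the floor on all arrays, IFIT1 was above it on the LATS2 array alone, and IFI44L and CXCL10 were below it on all.
ISG15: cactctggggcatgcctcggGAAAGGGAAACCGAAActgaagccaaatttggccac
BST2: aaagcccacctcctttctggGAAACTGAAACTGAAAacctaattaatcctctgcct
ISG20: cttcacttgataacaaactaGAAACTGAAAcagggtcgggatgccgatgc
SAMD9: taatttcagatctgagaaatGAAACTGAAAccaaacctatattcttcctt
IFIT1: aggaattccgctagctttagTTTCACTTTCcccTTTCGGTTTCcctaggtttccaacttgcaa
IFI44L: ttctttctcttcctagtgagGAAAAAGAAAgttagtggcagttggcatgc
CXCL10: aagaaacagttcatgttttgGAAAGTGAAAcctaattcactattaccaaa

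These windows lie at chr1:1013364-1013419 on the plus strand for ISG15, chr19:17405725-17405780 on the minus strand for BST2, chr15:88638927-88638976 on the plus strand for ISG20 and chr7:93118086-93118135 on the minus strand for SAMD9. They lie at chr10:89392487-89392549 on the plus strand for IFIT1, chr1:78620355-78620404 on the plus strand for IFI44L and chr4:76023689-76023738 on the minus strand for CXCL10. All lie upstream of the start site. The capitals begin at position -113 in ISG15 and -130 in BST2, where 2 overlapping matches share bases, and at -116 in IFIT1, where 2 matches are separated by 3 bases. The single matches begin at -69 in ISG20, -136 in SAMD9 and -221 in CXCL10. IFI44L has 2 matches of the same letters, at -164 and -73, and the stretch shown holds the second. ISG20, SAMD9 and BST2 hold the identical core GAAACTGAAA. Their orders over the arrays were not identical: BST2 was lowest on the control array, and ISG20 and SAMD9 were lowest on the LATS2 array. OAS1, the gene with the largest ratios to control, had no match to the ISRE core in its window. Cores with another spacing were not searched, so this does not show that OAS1 lacks an ISRE. Its window held a match to the STAT dimer motif at -168.

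The first comparison set the LATS2 array beside the control array, to see which of these genes differ with the intact kinase. Of the 29 genes that reached the floor, none was called at 2-fold, where 1.80% of 13186 genes were called in either direction. At 1.5-fold, 2 genes were higher (OAS1 and HERC6; 5.85% of all genes) and none lower (4.41% of all genes). Relative to the probe set spread, HERC5 and HERC6 were more than 2 spreads higher and MX2 more than 2 spreads lower, 3 of 29 genes, while 17.1% of all genes passed that limit. At 1.5-fold in either direction the share was 6.90% of the 29 genes, beside 10.3% of all genes. The members' median log2 ratio was -0.07, beside 0.03 for all genes, with 13 ratios above 0 and 16 below.

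The LATS2N fragment was compared with the same control array, so these values are not independent of the preceding ones. Of 27 genes that reached the floor, none was called at 2-fold, against 1.51% of 13245 genes. At 1.5-fold, OAS1, BST2 and ISG20 were higher (4.86% of all genes) and MX1 was lower (3.27% of all genes). In either direction the 1.5-fold share was 14.8% of the 27 genes, beside 8.13% of all genes. More than 2 spreads higher were BST2, IFITM3, ISG15, ISG20 and OAS1, and MX1 was more than 2 spreads lower. That made 6 of 27 genes (22.2%), beside 17.3% of all genes. The median was 0.09, beside 0.02 for all genes, and 15 ratios were above 0 and 12 below.

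The third comparison, of LATS2 with LATS2N, does not use the control. It reuses the construct arrays of the preceding comparisons, so its values are not independent of theirs. Of 28 genes at or above the floor, none was called at 2-fold, against 1.59% of 13175 genes. At 1.5-fold, MX1 was higher (4.27% of all genes) and ISG20 lower (5.07% of all genes). In either direction the 1.5-fold share was 7.14% of the 28 genes, beside 9.34% of all genes. HERC5, IFIH1 and MX1 were more than 2 spreads higher on the LATS2 array, and IFITM2, IRF1, ISG15 and ISG20 more than 2 spreads lower, 7 of 28 genes beside 19.5% of all genes. The median was -0.18, beside 0.01 for all genes, with 18 ratios below 0 and 10 above. Among the 23 members above the floor throughout, 12 were highest on LATS2N and 12 lowest on LATS2, while 31.8% of 11534 genes above the floor were highest on LATS2N and 30.6% lowest on LATS2.

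**Figure D3:**
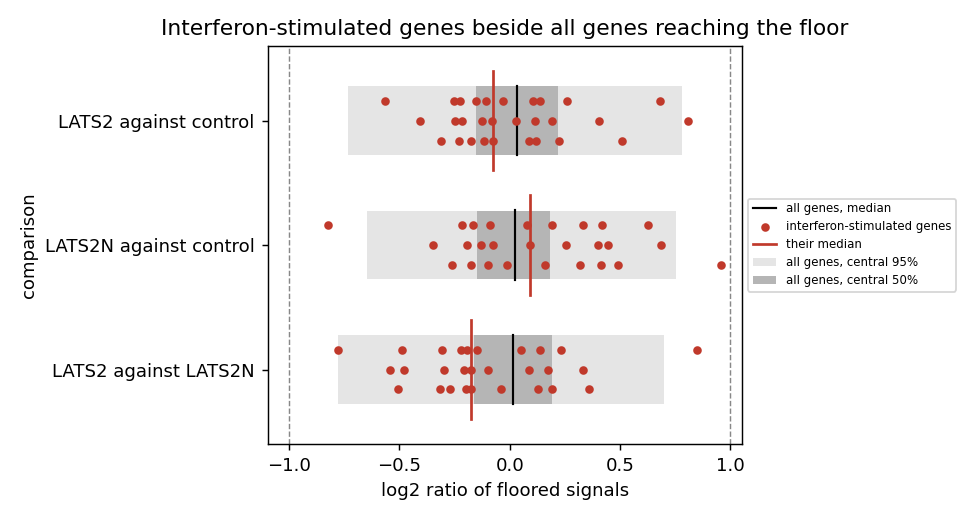
Log2 ratios of the interferon-stimulated genes (red points, red line at their median) over the central 95% and 50% of all genes reaching the floor (grey bands, black line at the median), for the 3 comparisons. All red points lie inside the dashed 2-fold lines, and the red median is farthest from the black one in LATS2 against LATS2N, at -0.18 beside 0.01.

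Agreement between probe sets limits what can be said of single genes. For 12 genes, more than 1 probe set reached the floor on some array. In LATS2 against control, 9 of 11 such genes had all usable probe sets on the same side of 0, with IFIH1 and RIGI as exceptions. In LATS2N against control it was 9 of 12, with OAS2, PARP9 and RIGI as exceptions, and in LATS2 against LATS2N 8 of 12, with EIF2AK2, IFIT5, OAS2 and RIGI as exceptions. OAS1, IFIT3, ISG20, OASL, SAMD9 and IRF1 kept their side of 0 in every comparison the probe sets shared, though OASL's 2 probe sets against control differed in size, with log2 ratios of -0.08 and -0.67 for LATS2. The other genes above the floor, BST2, ISG15, HERC5, IFITM2, IFITM3, MX2 and IFI6 among them, rest on 1 probe set with signal above the floor.

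**Figure D4:**
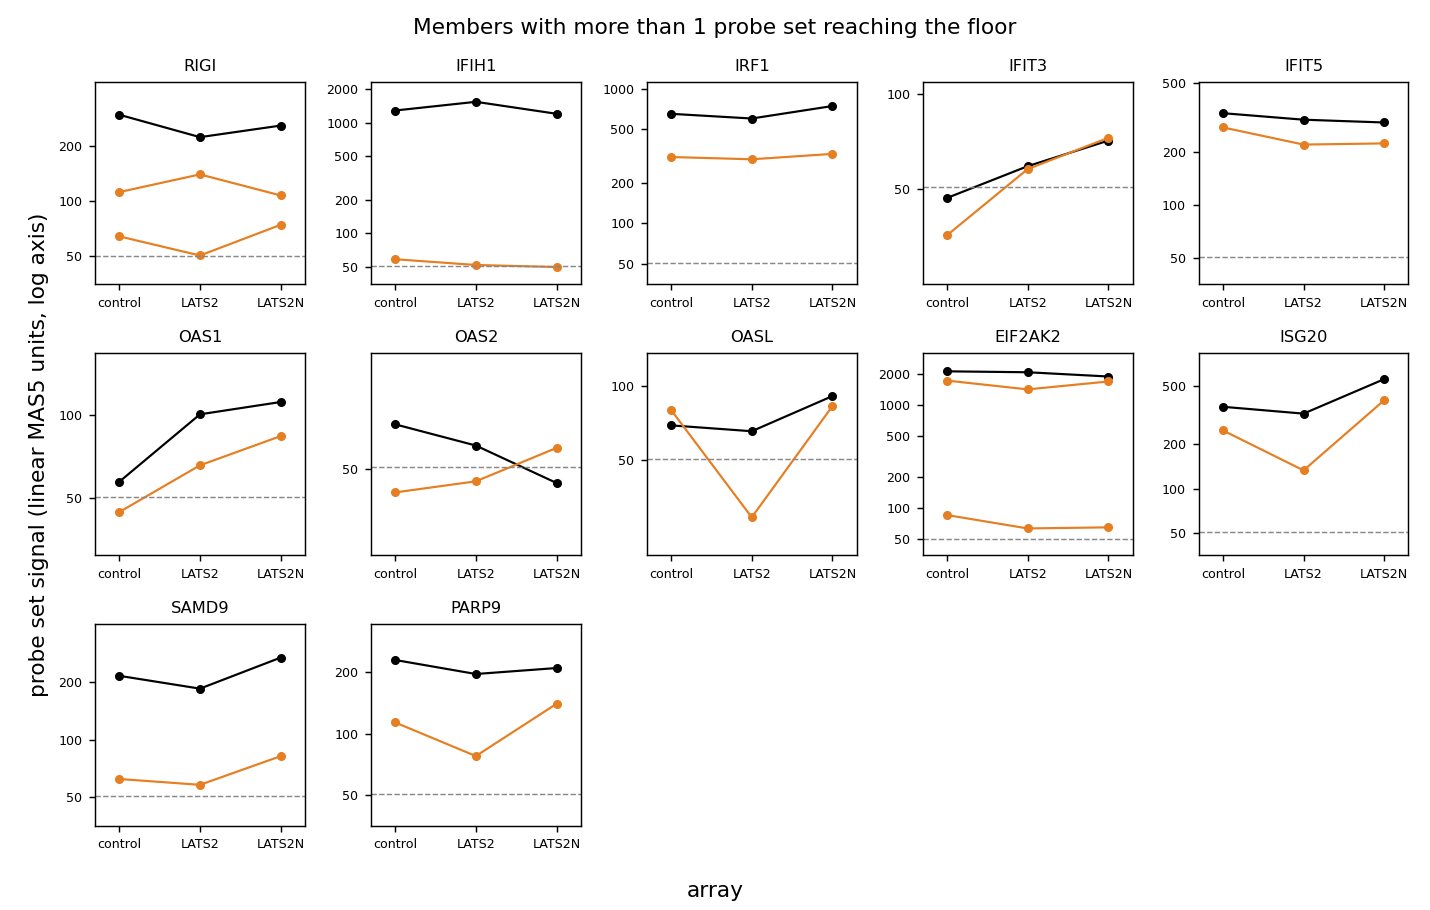
Signals of every probe set that reached the floor on some array, for the 12 genes with more than 1, on log axes; each line joins 1 probe set's 3 arrays, black for the brightest and orange for the others, and the dashed line is the floor. OAS1 and IFIT3 are lowest on the control array in both probe sets, ISG20 is highest on LATS2N in both, and the RIGI lines cross in direction.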

How the data were processed

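The values were probe set intensities on a linear scale, deposited by the authors; the submitters' processing notes name MAS5, and its version and settings are not given in the sources used here. Total RNA was labelled as biotinylated cRNA, per the labels' protocols. All 3 arrays were used as deposited. Of 54675 probe sets, 62 controls were set aside, 41091 had 1 gene symbol, 1801 several and 11721 none in the platform table. Symbols were updated by gene identifier to RefSeq (GRCh38.p14) for 41037 probe sets.

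Python 3.11.15 with numpy 2.4.6 and pandas 2.3.3 was used. Signals were floored, and a gene was called by size at 2-fold. No test was possible with 1 array per group, and their number limits the precision. The 2-fold call was run on simulated data with larger shifts, put only into genes well above the floor. That run does not cover dim genes or ratios under 2-fold. The spread came from pairs of probe sets of 1 gene, each above the floor.

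The members, lists and comparisons were chosen with earlier results of these data known, and the limit of 2 spreads after seeing the data. All members were named by role. The rule gave full signals to members called, those of at least 500 on any array and, among members above the floor on all arrays, the 5 highest and 5 lowest ratios per comparison; signals of other members were added to show their order. Alternatives covered the floor, the probe set, scaling and the size of the call.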

Additional observations from a re-analysis of the deposited data

How the results depend on the processing

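The count of 0 genes called at 2-fold stayed at 0 in all 3 comparisons with a floor at the 75th percentile, quantile normalization, arrays scaled to one median, no probe sets of possible shared targets, and a signal of at least 500. It changed with a lower floor, by the construction of that setting, since signals under 50.5 then enter the ratios. With the floor at the 25th percentile (14.5), 1 of 37 genes was called in LATS2 against control, 4 of 37 in LATS2N against control and 6 of 38 in LATS2 against LATS2N, beside 9.98%, 9.31% and 9.76% of all genes. MX1 was then 2.54-fold lower on LATS2N than on control. With no floor the counts were 4, 8 and 9 of 42, beside 18.8%, 17.7% and 18.5% of all genes. The median over probe sets gave 1 call, ISG20 in LATS2 against LATS2N (2.27-fold lower), where 1.25% of all genes were called. The 1.5-fold call gave 2, 4 and 2 genes, and the limit of 2 spreads 3, 6 and 7. The median log2 ratio of LATS2 against control was 0.042 with the floor at the 75th percentile, where only 8 genes were left, and otherwise stayed below 0. In LATS2 against LATS2N it was -0.22 with arrays scaled to one median. Single ratios turned sign in at most 3 of 67 values under any one setting. No paired analysis was possible because each group holds 1 array.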

Other observations

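Of the 35 measured genes of the wider pathway, 5 differed by 1.5-fold or more in some comparison, and none by 2-fold. In LATS2 against control, 2 of the 24 reaching the floor were higher and none lower. In LATS2N against control, 2 of 25 were higher and 1 lower, and in LATS2 against LATS2N 2 of 24 were higher and 1 lower. Of all genes, 10.3%, 8.13% and 9.34% passed 1.5-fold in the 3 comparisons, so these counts do not set the pathway apart. UBE2L6, the conjugating enzyme that passes ISG15 to its ligases, read 78.0 (control), 139 (LATS2) and 134 (LATS2N), 1.79-fold and 1.72-fold above control. TICAM1, the adaptor of the RNA sensor TLR3, read 146, 283 and 209, 1.94-fold higher on LATS2 than on control. Each of them was read by 1 probe set. JAK2, a receptor-associated kinase, read 90.4, 83.1 and 45.5, at least 1.79-fold lower on LATS2N than on control. That difference rests on its brightest probe set. Another JAK2 probe set, at 50.2, 56.3 and 42.9, was above the floor on the LATS2 array alone, and the dimmest was below it on every array. SOCS1, a feedback inhibitor of JAK kinases, read 62.3, 53.8 and 94.8, 1.76-fold lower on LATS2 than on LATS2N, but another of its probe sets, at 58.0, 48.4 and 23.8, was lowest on LATS2N. MAVS, the mitochondrial adaptor of RIG-I and MDA5, read 843, 1046 and 670, 1.56-fold higher on LATS2 than on LATS2N by its brightest probe set. Dimmer MAVS probe sets, at 614, 661 and 544 and at 321, 351 and 296, shared that order with smaller differences. The dimmest, at 159, 133 and 147, was instead lowest on LATS2. The 1.5-fold limit for these genes was chosen after their values were seen.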
